A study of Homo sapiens with 6 samples.

Results

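The 10 genes described here carry the unfolded protein response of the endoplasmic reticulum and the disposal of proteins from it. ERN1, ATF6 and EIF2AK3 encode its sensors, XBP1 a transcription factor, and HERPUD1, SEL1L, SYVN1, EDEM1, DERL1 and DERL2 proteins of endoplasmic reticulum-associated degradation (ERAD). They were chosen by gene symbol, and each has 1 row in a table of 58735 genes. Transcripts were measured by RNA-seq of poly-A enriched RNA from A375, an established human line of malignant melanoma. There were 3 libraries of cells given PAL, Ringer's lactate treated with plasma (here an ionised gas), and 3 of control cells. The sources used here state no dose, no exposure time and no treatment of the control cells, and the deposited PAL columns carry a number whose meaning is not given. Nor do they say that replicates were separate cultures, so p-values reflect variation among libraries that could be purely technical.

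Proteins that enter the endoplasmic reticulum fold there with the help of chaperones, and the unfolded protein response adjusts the cell when folding falls behind. The kinase and nuclease IRE1, encoded by ERN1, splices XBP1 mRNA so that it yields an active transcription factor. ATF6 is cut in the Golgi and its freed part enters the nucleus, and the kinase PERK, encoded by EIF2AK3, slows translation and favours ATF4. In ERAD, misfolded proteins are recognised, moved back across the membrane, ubiquitinated and passed to the proteasome. Activity of the sensors lies in their cleavage, splicing or phosphorylation, none of which a gene-level transcript count measures. Melanoma cells are known to carry chronic stress of the endoplasmic reticulum.

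Levels are given in FPKM, reads per kilobase of gene scaled to a library size, as deposited. Reads assigned to genes, recovered from the FPKM steps, ranged from 15064971 to 17711389 per library. Each difference is PAL minus control in log2(FPKM + 1), tested with limma over 12258 genes with at least 1 FPKM in at least 3 libraries. A gene is called here when its p, adjusted by the Benjamini-Hochberg method over those 12258 genes, is below 0.05. By this rule 14.5% of tested genes were lower and 11.4% higher in PAL, and rises made up 44.0% of the calls. That share was 69.7% after scaling to TPM, 59.2% after quantile normalization and 73.3% with plain read totals. The 3179 calls became 1972 when PAL replicate 1 was dropped, 1855 when PAL replicate 2 was, and 2051 when control replicate 2 was. The melanoma genes SOX10 and VIM stood at 86.4 to 108 and 663 to 703 FPKM over the 6 libraries, and MITF at 2.12 to 2.40, whereas the pigment enzyme TYR was listed at 0 in all 6, and PMEL, MLANA and DCT stayed at or below 0.415 FPKM. Of markers of other cell types, 1 of 3 for keratinocytes (KRT14) and 1 of 4 for fibroblasts (LUM) reached 1 FPKM in every library, as did 0 of 3 for immune and 0 of 2 for endothelial cells. The keratinocyte markers summed to 2.62 to 3.28 FPKM in PAL and 3.56 to 4.38 FPKM in control, and those of fibroblasts to 3.06 to 4.47 FPKM in PAL and 4.14 to 4.69 FPKM in control. Their part in the results was not tested. Heat shock transcripts were high in the libraries labelled control, with HSPA6 at 20.7, 27.4 and 73.2 FPKM in PAL and at 1999, 1960 and 1685 FPKM in control. Lower heat shock transcripts in PAL is the direction that the study's title names, and their part in the results below was not tested. Every direction below rests on the labels as given. HSPA6 and FOS are named after their values were seen.

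HERPUD1, XBP1 and EIF2AK3 fell in PAL, to between 0.199 and 0.459 of their control means. The remaining tested members, ATF6, SEL1L, SYVN1, EDEM1, DERL1 and DERL2, stood at 0.908 to 1.11 of theirs and none passed the test. Of 9 tested members 3 were called lower, against the 14.5% of all tested genes, and 0 higher, against 11.4%. There were also 0 higher when p was left unadjusted (below 0.05) in limma, or by voom, its model of read counts. Over all 12258 tested genes these rules gave 2304 and 1640 higher. ERN1 was below the filter and was not among the 9. The median difference of the 9 was -0.04, against 0.0043 over all tested genes. Each value is relative to the other transcripts of its library, and in bulk RNA fewer cells holding a transcript and less of it per cell cannot be told apart.

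**Figure D1:**
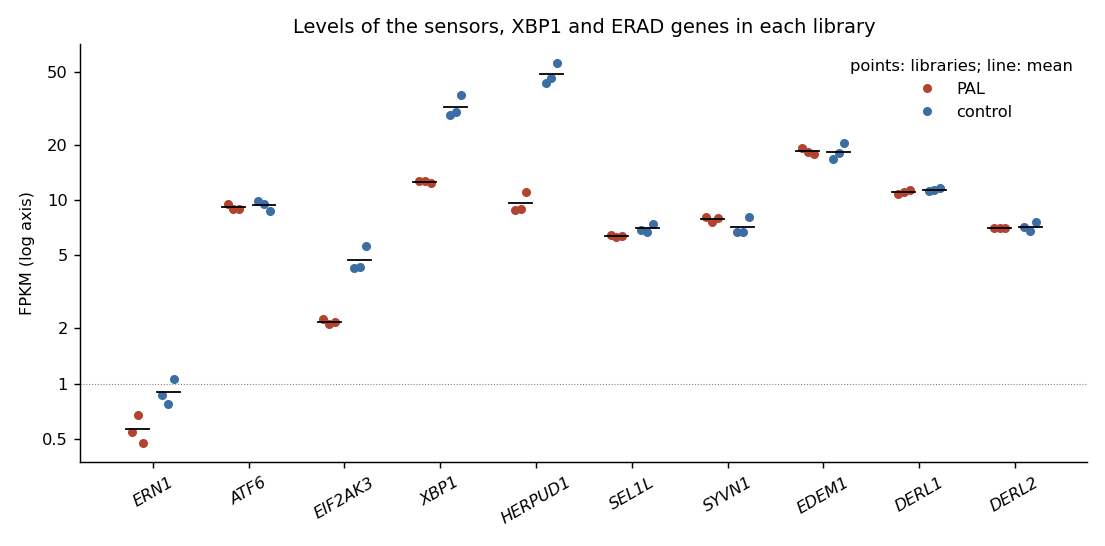
FPKM of the 10 genes on a log axis, with PAL libraries left of control libraries for each gene, points for single libraries, short lines for the mean of 3, and a dotted line at 1 FPKM. The groups lie apart for HERPUD1, XBP1, EIF2AK3 and ERN1, narrowly apart for SEL1L, and overlap for the other genes.

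Of the 2 sensors tested, EIF2AK3 (PERK) fell and ATF6 did not pass. EIF2AK3 (chromosome 2, 88556741 to 88627576, minus strand, hg38) stood at 2.25, 2.12 and 2.16 FPKM in PAL and at 4.24, 4.34 and 5.64 FPKM in control. The PAL libraries lay close together and all below the lowest control library, and control replicate 3 stood above the other control libraries. EIF2AK3 fell by 0.85 ± 0.10 (SE) on the log2 scale (limma adjusted p = 0.00144). Its 192 to 225 reads in PAL and 349 to 475 reads in control are few for a gene of this length. An antisense gene, AC104134.1, shares 781 of its 5434 exon bases and stood at 0 to 0.296 FPKM over the 6 libraries.

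ERN1 (chromosome 17, 64039142 to 64130819, minus strand), which encodes IRE1, was the lowest member. It was at 0.545, 0.673 and 0.475 FPKM in PAL and at 0.867, 0.770 and 1.06 FPKM in control, so the groups did not overlap. Over its 10864 listed exon bases this came from 109, 122 and 95 reads in PAL and from 149, 124 and 178 reads in control. With no filter, limma gave -0.28 (adjusted p = 0.166), on a scale that compresses values below 1. With voom on the recovered reads, for genes with at least 10 reads in at least 3 libraries, ERN1 fell by 0.68 ± 0.15 (SE), with an adjusted p = 0.00275 over 15481 genes. That fit was added after the data were seen, and it called 15.5% of its genes lower.

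ATF6 (chromosome 1, 161766294 to 161964070, plus strand) stood at 9.53, 8.94 and 8.92 FPKM in PAL and at 9.87, 9.51 and 8.75 FPKM in control. The groups overlapped, and control replicate 3 was the lowest of the 6. Its difference was -0.03 with a 95% interval of -0.16 to 0.09 (limma adjusted p = 0.668). Its sign turned to 0.03 after scaling to TPM and 0.04 with plain read totals.

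XBP1 (chromosome 22, 28794555 to 28800597, minus strand) stood at 12.6, 12.7 and 12.4 FPKM in PAL and at 29.1, 30.1 and 37.3 FPKM in control. The PAL libraries were nearly level, and the lowest control library was above them all. XBP1 fell by 1.28 ± 0.09 (SE), the 123rd-largest fall among 12258 tested genes (limma adjusted p = 1.33e-04). The gene total does not separate spliced from unspliced XBP1 mRNA.

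HERPUD1 (chromosome 16, 56932048 to 56944863, plus strand) encodes a membrane protein with a ubiquitin-like domain that is known to assist the SYVN1 ligase, and is itself induced by the response. It stood at 8.81, 8.97 and 11.0 FPKM in PAL and at 43.4, 46.0 and 55.7 FPKM in control. PAL replicate 3 and control replicate 3 were each the highest of their group, and the groups lay far apart. HERPUD1 fell by 2.22 ± 0.11 (SE), the 28th-largest fall among tested genes (limma adjusted p = 4.09e-05), and its mean in PAL was 0.199 of that in control. By mean level it ranked 4489th of 12258 genes in PAL and 935th in control.

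Inside introns of HERPUD1 lie 2 short genes on the same strand that share none of its exon bases. AC012181.2 was at 0.271, 0.598 and 1.54 FPKM in PAL, from 3, 6 and 17 reads. In control it was at 5.78, 4.38 and 3.87 FPKM, from 55, 39 and 36 reads. It fell in PAL by 1.70 (limma adjusted p = 0.00429). AC012181.1 lay between 0.233 and 0.621 FPKM in PAL (3 to 8 reads) and between 1.20 and 2.44 FPKM in control (13 to 27 reads). It fell in PAL by 1.06 (limma adjusted p = 0.00798). Both passed the filter of at least 1 FPKM in at least 3 libraries through control, where they were high. No support is drawn from these p-values. Whether reads there belong to separate transcripts or to unspliced HERPUD1 was not tested.

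The promoters of HERPUD1 and XBP1 are shown because, of 10 promoter windows found for 9 members in RefSeq (GRCh38.p14), they alone held an element of the endoplasmic reticulum stress response searched for here. Each window runs from 250 bases before a RefSeq start site to 50 bases after its first base. The searched motifs, on both strands, were ERSE (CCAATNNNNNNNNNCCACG), ERSE-II (ATTGGNCCACG), UPRE (TGACGTGG) and CRE (TGACGTCA). Capitals mark ERSE-II in HERPUD1, 117 to 107 bases before the start site of chr16:56931892-56932191 (plus strand), and ERSE in XBP1, 52 to 34 bases before that of chr22:28800520-28800819 (minus strand), both on the sense strand.
HERPUD1: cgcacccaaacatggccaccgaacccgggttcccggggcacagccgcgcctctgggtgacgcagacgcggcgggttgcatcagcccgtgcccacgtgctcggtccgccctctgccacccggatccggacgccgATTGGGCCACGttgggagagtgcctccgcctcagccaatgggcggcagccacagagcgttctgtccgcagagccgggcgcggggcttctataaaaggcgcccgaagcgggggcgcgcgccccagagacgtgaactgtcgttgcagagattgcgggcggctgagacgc
XBP1: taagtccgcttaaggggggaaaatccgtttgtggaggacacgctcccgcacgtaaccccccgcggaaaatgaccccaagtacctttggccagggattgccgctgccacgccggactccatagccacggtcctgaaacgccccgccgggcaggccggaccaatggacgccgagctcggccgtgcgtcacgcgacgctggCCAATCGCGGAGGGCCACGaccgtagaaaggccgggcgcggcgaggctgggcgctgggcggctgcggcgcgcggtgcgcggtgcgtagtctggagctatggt

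ERSE was in 27 of 35116 RefSeq windows (0.0769%), ERSE-II in 19 (0.0541%), UPRE in 256 (0.729%) and CRE in 649 (1.85%). No match says only that those letters are not in that window, and XBP1 has a second window without any of the 4 motifs. In a count added after the data were seen, 44 gene symbols held ERSE or ERSE-II and 27 of them were tested. Of these 27, 16 were called lower in PAL (59.3%, against 14.5% of all tested genes) and 0 higher (against 11.4%). The count higher was also 0 by voom and with unadjusted p below 0.05 in limma, against 1640 and 2304 of all 12258 tested genes. Their median difference was -0.16, against 0.0043 over all tested genes. Besides HERPUD1 and XBP1, the called genes included the chaperones HSPA5, HSP90B1, HYOU1, CALR (not called after quantile normalization, limma adjusted p = 0.579, and 1.23e-05 to 0.579 over 19 alternatives) and CANX. A match is a description and not a bound site, and many genes of the pathway lists are known from such elements, so the 2 are not independent. Leaving out every gene of the lists, 6 of 17 were lower (35.3%). These were CANX, EIF2A, ERO1B, NUCB1, PLS3 and SETD3, so a chaperone (CANX) remained and the dependence is not removed. UPRE and CRE were counted likewise. Of 99 tested genes with UPRE, 21 were called lower (21.2%) and 7 higher. Of 349 with CRE, 82 were lower (23.5%) and 26 higher. Of all tested genes, 11.4% were higher. Both shares lower were also above the 14.5% of all tested genes. Leaving out genes of the lists, they were 20.7% for UPRE and 23.3% for CRE. Motif counts cover only genes with a RefSeq window, whereas the 14.5% covers every tested gene, so these shares are not like for like. The share among tested genes with a window was not computed. In the fit of protein-coding genes only, 3412 of 10338 genes were called, 1491 of them higher.

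The core of the main ERAD ligase showed no call. SEL1L (chromosome 14, 81471549 to 81533861, minus strand), the adaptor that holds the ligase complex together, stood at 6.43, 6.26 and 6.37 FPKM in PAL and at 6.90, 6.70 and 7.39 FPKM in control. The groups did not overlap but lay close. Its difference was -0.12 with a 95% interval of -0.23 to -0.01 (limma adjusted p = 0.0952), and it passed as lower with voom (adjusted p = 0.0401, and 0.0401 to 0.469 over 19 alternatives). Of tested genes, 23.6% had PAL libraries all below control libraries, as had 4 of the 9 tested members.

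SYVN1 (chromosome 11, 65121780 to 65134533, minus strand), the ubiquitin ligase HRD1 itself, stood at 8.07, 7.59 and 8.0 FPKM in PAL and at 6.69, 6.67 and 8.05 FPKM in control. PAL libraries were above control replicates 1 and 2, whereas control replicate 3 was inside their range. Its difference was 0.13 with a 95% interval of -0.04 to 0.30 (limma adjusted p = 0.215). Without control replicate 3 it passed as higher by 0.21 (adjusted p = 0.0232, and 0.0232 to 0.456 over 19 alternatives). Its exons share 398 of 5496 bases with FAU on the same strand and 356 with MRPL49 on the opposite strand. FAU was at 181 to 189 FPKM in PAL and 177 to 185 FPKM in control. MRPL49 was at 33.3 to 34.6 FPKM in PAL and 29.6 to 33.2 FPKM in control (difference 0.12, limma adjusted p = 0.0968). How reads were shared out there is not given, so the level of SYVN1 and its difference are uncertain.

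EDEM1 (chromosome 3, 5187646 to 5219957, plus strand), a lectin-like protein that trims mannose and marks glycoproteins for disposal, was at 19.1, 18.2 and 17.8 FPKM in PAL and at 16.7, 18.0 and 20.4 FPKM in control. The PAL values lay inside the control range. Its difference was 0.0064 with a 95% interval of -0.16 to 0.17 (limma adjusted p = 0.955), and it took either sign when 1 library was left out.

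DERL1 and DERL2 encode derlins, membrane proteins of the channel through which clients leave. DERL1 (chromosome 8, 123013164 to 123042423, minus strand) was at 10.8, 11.0 and 11.3 FPKM in PAL and at 11.2, 11.4 and 11.6 FPKM in control, with overlapping groups. Its difference was -0.04 with a 95% interval of -0.12 to 0.04 (limma adjusted p = 0.398). DERL2 (chromosome 17, 5471251 to 5486811, minus strand) was at 7.07, 7.01 and 7.08 FPKM in PAL and at 7.16, 6.79 and 7.55 FPKM in control. The PAL values were again inside the control range, with a difference of -0.02 and a 95% interval of -0.13 to 0.09 (limma adjusted p = 0.784). Both differences turned positive after scaling to TPM or plain read totals, at 0.02 and 0.04 for DERL1 and 0.05 and 0.06 for DERL2, and neither passed there. Opposite-strand genes share exon bases with EDEM1 (653, AC026202.3), DERL1 (396, TBC1D31) and DERL2 (301, MIS12), so reads there cannot be assigned without the strand setting. MIS12 was itself called lower in PAL, by 0.18 (limma adjusted p = 0.0478), a call lost with no filter (limma adjusted p = 0.113). TBC1D31 differed by 0.03 and was not called (limma adjusted p = 0.738), and AC026202.3 was below the filter. The intervals of ATF6, EDEM1, DERL1 and DERL2 end at -0.16 or above, short of the difference of EIF2AK3.

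**Figure D2:**
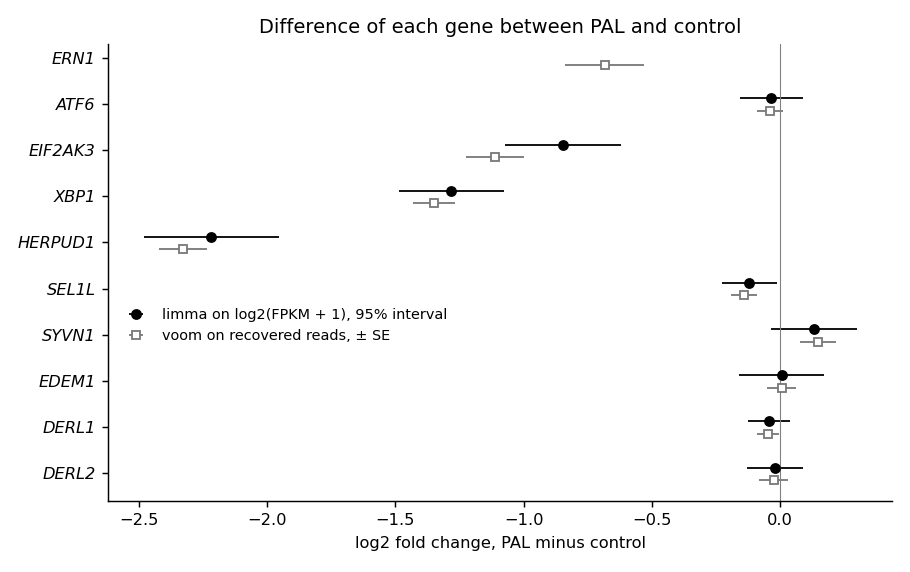
Log2 fold change of each gene, PAL minus control, by limma on log2(FPKM + 1) with 95% intervals (black circles) and by voom on recovered reads with SE (grey squares, at least 10 reads in at least 3 libraries). HERPUD1, XBP1 and EIF2AK3 lie well left of 0 in both fits, ERN1 has only the read-based value of -0.68, and the other 6 lie between -0.14 and 0.15.

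The order of the levels differed between the groups, both at its top and between SYVN1 and DERL2, whose control libraries overlapped. In PAL it ran from EDEM1 at 18.4 ± 0.669 FPKM (SD, n = 3) through XBP1, DERL1, HERPUD1, ATF6, SYVN1, DERL2, SEL1L and EIF2AK3 to ERN1 at 0.564 ± 0.10. In control it ran from HERPUD1 at 48.4 ± 6.50 FPKM (SD, n = 3) through XBP1, EDEM1, DERL1, ATF6, DERL2, SYVN1, SEL1L and EIF2AK3 to ERN1 at 0.898 ± 0.146. Neighbours whose libraries overlapped were DERL1, HERPUD1 and ATF6 in PAL, and DERL2, SYVN1 and SEL1L in control. FPKM divides by the exon bases of all annotated transcripts together, so genes that use few of their exons appear lower.

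Control replicate 3 held the highest control value of 9 of the 10 members, all but ATF6, whereas it was the highest control library for 36.6% of tested genes. In PAL the highest value was in replicate 1 for 5 members, replicate 2 for 2 and replicate 3 for 3. HSPA5, the main chaperone of the compartment and no member here, was also highest in control replicate 3, with 216, 214 and 234 FPKM in PAL and 621, 679 and 709 FPKM in control. FOS, an immediate early gene, was lowest in control replicate 3, with 9.60, 10.5 and 23.9 FPKM in PAL and 94.9, 75.9 and 32.8 FPKM in control. Without control replicate 3, HERPUD1, XBP1 and EIF2AK3 were lower in PAL by log2 values of -2.11, -1.17 and -0.74, and their calls held in each of the 18 or 19 alternatives in which they were tested.

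Ratios within a library do not depend on its size. SYVN1 to SEL1L was 1.25, 1.21 and 1.26 in PAL and 0.970, 0.995 and 1.09 in control. The SYVN1 transcript thus stood higher against that of SEL1L in every PAL library than in any control library. Exon bases that SYVN1 shares with FAU and MRPL49 leave this ratio uncertain. HERPUD1 to SYVN1 was 1.09, 1.18 and 1.38 in PAL and 6.48, 6.90 and 6.93 in control. DERL1 to DERL2 was 1.52, 1.57 and 1.59 in PAL and 1.56, 1.68 and 1.53 in control, with overlapping groups. ERN1 to EIF2AK3 was 0.242, 0.318 and 0.220 in PAL and 0.204, 0.178 and 0.187 in control. XBP1 to ERN1 was 23.2, 18.8 and 26.2 in PAL and 33.6, 39.1 and 35.3 in control, so XBP1 was lower against the gene of its splicing enzyme. For the 4 ratios whose groups did not overlap, a two-sided exact permutation test over libraries gave p = 0.1 (0.125 adjusted over the 5 ratios), the smallest that 3 against 3 allows. It gave p = 0.7 for DERL1 to DERL2 (exact test, adjusted p = 0.7).

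**Figure D3:**
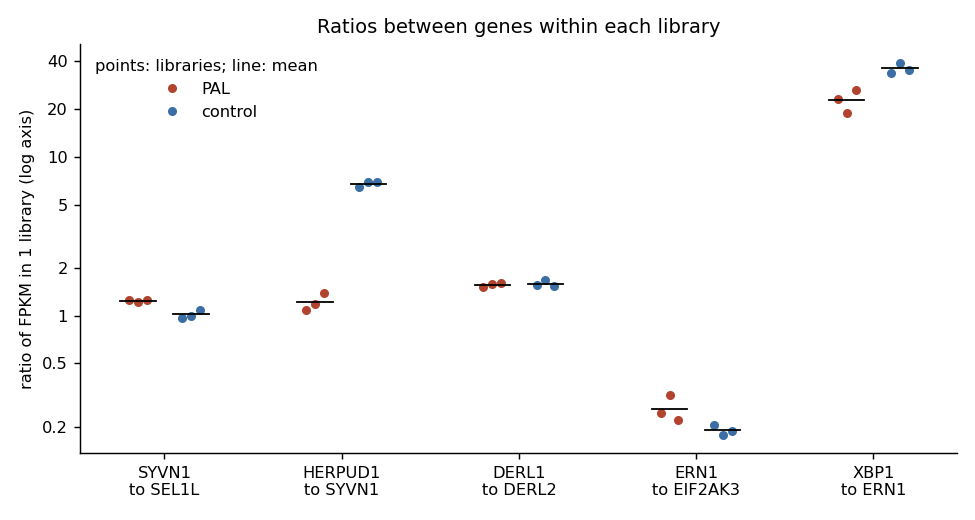
Ratio of FPKM between 2 genes within each library on a log axis, PAL left of control, with points for libraries and lines for the mean of 3. HERPUD1 to SYVN1 averages 1.22 in PAL and 6.77 in control, the widest gap of the 5, whereas DERL1 to DERL2 averages 1.56 in PAL and 1.59 in control.

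The paralogs HERPUD2, EDEM2, EDEM3, DERL3, ERN2 and ATF6B are given for their kinship with the members, a choice made after their values were seen. HERPUD2 averaged 6.11 ± 0.247 FPKM in PAL and 6.42 ± 0.876 FPKM in control (SD, n = 3 each). EDEM2 averaged 13.6 ± 1.27 and EDEM3 10.8 ± 0.468 FPKM in PAL, against 13.2 ± 0.469 and 10.6 ± 0.445 FPKM in control (SD, n = 3 each), and none of these 3 passed. DERL3 and ERN2, genes of secretory tissues, stayed below 0.1 FPKM on average in both groups. ATF6B averaged 12.3 ± 0.724 FPKM in PAL and 11.2 ± 0.355 FPKM in control (SD, n = 3 each), a difference of 0.13 (limma adjusted p = 0.0945). Among the other kinases of the same translation factor, EIF2AK4 (GCN2) fell by 0.16 (limma adjusted p = 0.0177, 0.00155 to 0.129 over 19 alternatives). That call was lost without PAL replicate 2 or control replicate 1 or 2, with a replicate block, and after scaling to TPM or plain read totals. EIF2AK2 (PKR), named after its values were seen, fell by 0.13 (limma adjusted p = 0.0402), a call lost when any 1 library was left out.

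Other genes of ERAD moved in both directions. Of 34 tested, 8 were called lower and 3 higher, against 14.5% and 11.4% of all tested genes, with a median of -0.05. DNAJB9, a co-chaperone that holds IRE1 inactive and serves ERAD, had the largest fall of the list, with 3.06 ± 0.303 FPKM in PAL and 12.2 ± 1.47 FPKM in control (SD, n = 3 each, log2 -1.69, limma adjusted p = 5.65e-05). RNF185, a membrane ubiquitin ligase, fell by 0.35 (limma adjusted p = 0.0135), a call lost without both libraries numbered 3 (adjusted p = 0.0611, and 0.00143 to 0.0611 over 19 alternatives). VCP, the ATPase that pulls clients out of the membrane, named after its values were seen, averaged 114 ± 0.802 FPKM in PAL and 130 ± 1.23 FPKM in control (SD, n = 3 each), and its call was lost after quantile normalization (limma adjusted p = 0.0842, and 3.47e-06 to 0.0842 over 19 alternatives). The 3 that rose were TMEM129, a ubiquitin ligase, by 0.36, the conjugating enzyme UBE2J2 by 0.25 and AUP1, which recruits such an enzyme, by 0.20 (limma adjusted p = 0.00793, 0.00627 and 0.0101). AUP1 was named after its values were seen. The count of 8 became 5 without PAL replicate 1, 4 without PAL replicate 2, and 5 after scaling to TPM or plain read totals.

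Genes known as ATF6 targets were called lower in 8 of 10 cases and higher in 0, against 14.5% and 11.4% of all tested genes, with a median of -0.39 against 0.0043 over all tested genes. By voom, and by unadjusted p below 0.05 in limma, 9 were lower and 0 higher. Over all 12258 tested genes, voom called 2244 lower and 1640 higher, and unadjusted p gave 2538 lower and 2304 higher. HSPA5 fell by 1.59 (limma adjusted p = 1.27e-05), and DDIT3, which encodes the transcription factor CHOP, by 1.20 (limma adjusted p = 1.42e-04). DDIT3 is also in the list of PERK branch genes, so its call counts in both lists. The 2 without a call were MANF, at -0.16, and PDIA4, at -0.03, named after their values were seen. ATF6 itself showed no call.

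Targets of spliced XBP1 had a median of -0.03, with 5 of 21 called lower (23.8%) and 1 higher (4.76%), against 14.5% and 11.4% of all tested genes. DNAJB9, in this list too, and DNAJC3, an inhibitor of PERK, fell by 1.69 and 0.37 (limma adjusted p = 5.65e-05 and 0.00761). KDELR2, a receptor that returns proteins from the Golgi, rose by 0.10 (limma adjusted p = 0.0449), a call lost when any 1 library was left out. Of the 15 without a call, SEC61A1, a subunit of the translocon, stood at 115 ± 0.376 FPKM in PAL and 112 ± 4.30 FPKM in control (SD, n = 3 each), named after its values were seen. The count of 5 became 3 without control replicate 2 and after scaling to TPM or plain read totals.

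Genes of the PERK branch, ATF4 and EIF2S1 among them, had the lowest median of the lists beside the members, at -0.71 over 11 tested genes. Of these, 7 were called lower (63.6%, against 14.5% of all tested genes) and 0 higher (against 11.4%). By voom, and by unadjusted p below 0.05 in limma, 0 were higher, against 1640 and 2304 of all 12258 tested genes. Of the 13, 2 (ASNS and VLDLR) were below the filter and are named for that reason. ATF3, a transcription factor of stress responses, averaged 2.05 ± 0.592 FPKM in PAL and 32.7 ± 1.92 FPKM in control (SD, n = 3 each, log2 -3.48, limma adjusted p = 1.44e-05). CHAC1, which degrades glutathione, averaged 3.17 ± 0.0242 FPKM in PAL and 18.7 ± 0.887 FPKM in control (SD, n = 3 each, log2 -2.24, limma adjusted p = 1.21e-06). ATF4 differed by -0.12 (limma adjusted p = 0.127) and TRIB3 by -0.14 (limma adjusted p = 0.0952). DDIT4 differed by -0.36 (limma adjusted p = 0.162) and EIF2S1 by -0.07 (limma adjusted p = 0.0807). These uncalled genes were named after their values were seen. Several genes of this list also respond to other stresses, and ATF3 is an immediate early gene.

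Relatives and regulators of the sensors were called lower in 3 of 19 cases (15.8%, near the 14.5% of all tested genes). Called higher were 0, against 11.4%, and the median was -0.03. At an unadjusted p below 0.05 in limma 2 were higher, and 0 with voom, against 2304 and 1640 of all 12258 tested genes. PDIA6, a disulfide isomerase that acts on IRE1 and PERK, fell by 0.18 (limma adjusted p = 0.0128), a call lost after scaling to TPM or plain read totals and after quantile normalization. The count of 3 became 1 without PAL replicate 2, control replicate 1 or control replicate 2, and 0 after scaling to TPM or plain read totals. The proteases that cut ATF6, MBTPS1 and MBTPS2, and the ligase RTCB that joins spliced XBP1 mRNA gave no call, at -0.04, -0.02 and -0.03, and were named after their values were seen.

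**Figure D4:**
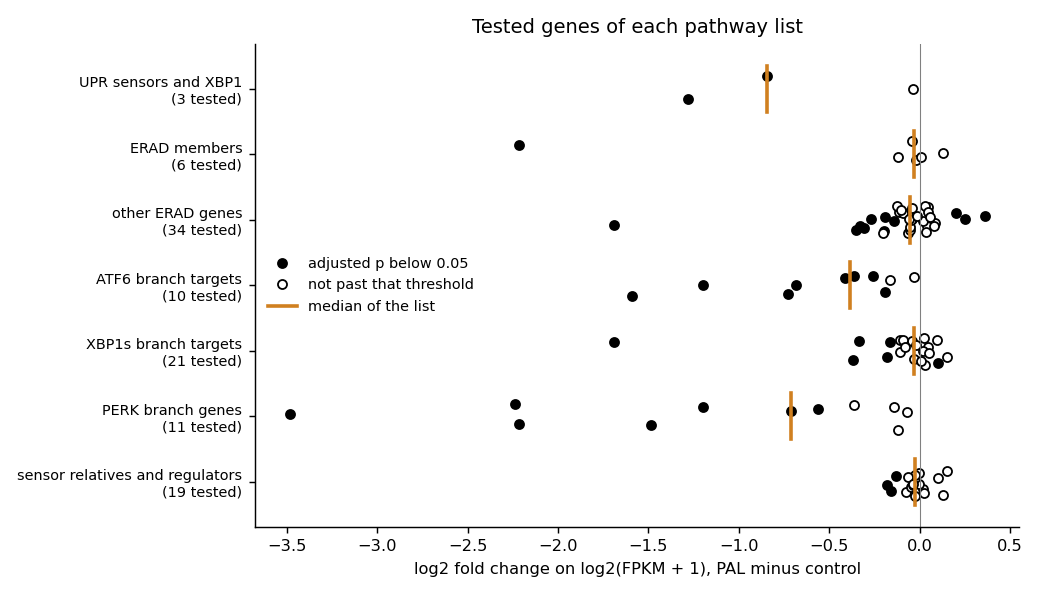
Log2 fold change, PAL minus control, of every tested gene of the 7 lists, with filled points for an adjusted p below 0.05 in limma, open points otherwise, and an orange bar at each list's median. ATF6 targets and PERK branch genes all lie left of 0, some of them close to it, with medians of -0.39 and -0.71. The medians of other ERAD genes, XBP1s targets and sensor relatives lie between -0.05 and -0.03.

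The 3 tested protein-coding genes whose centred log2(FPKM + 1) values over the 6 libraries lay nearest to those of HERPUD1, by Euclidean distance, were SERTAD1, MXD1 and TENT5A, at distances of 0.149, 0.205 and 0.235. SERTAD1, a transcriptional coregulator, stood at 7.23, 7.45 and 8.94 FPKM in PAL and at 40.05, 39.63 and 44.98 FPKM in control. MXD1, a partner of MAX, averaged 1.79 ± 0.114 FPKM in PAL and 11.5 ± 1.58 FPKM in control (SD, n = 3 each). TENT5A averaged 2.23 ± 0.479 FPKM in PAL and 13.4 ± 1.28 FPKM in control (SD, n = 3 each). The choice by likeness to HERPUD1 fixes their direction, so no test is read from it.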

How the data were processed

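Poly-A enriched RNA of 6 A375 libraries, 3 PAL and 3 control, was measured, and groups and replicate numbers come from the sample titles. The deposited table holds FPKM values made by the authors, with gene lengths and positions per the file headers, and hg38 is the build in the submitters' processing notes. No source used here names the aligner, counting tool or strand setting. All 58735 positions equal those of GENCODE release 29, and the listed length of each of the 10 members equals its joined exons there.

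In each library, FPKM multiplied by length fell on steps of 1 read for 100% of values (within 0.01), which gave reads per gene and 15064971 to 17711389 reads per library. The size behind the FPKM was 1.04 to 1.05 of the read total in PAL and 0.980 to 0.984 in control.

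Genes reaching 1 FPKM in 3 or more libraries were tested with limma 3.58.1 (R 4.3.3) on log2(FPKM + 1), with a variance trend, two-sided. The fit has 4 residual degrees of freedom. It was tested on simulated data. Chi-square per degree of freedom between replicates was 1.97 to 3.99 within groups, so no 2 libraries agreed within counting noise. Ratios used exact permutation tests (scipy 1.17.1). Figures used matplotlib 3.10.9.

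The members, 7 gene lists (110 entries, all matched by symbol or gene ID) and tests were chosen with earlier results of these data known. All members were named. From each other list, the rule named up to 2 rises and 2 falls among calls whose groups did not overlap, and exceptions are marked. Alternatives were pseudocount, filter, scaling, biotype, variance model, voom on recovered reads, a replicate block and leaving out libraries.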

Additional observations from a re-analysis of the deposited data

How the results depend on the processing

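HERPUD1, XBP1 and EIF2AK3 kept direction and call in all 19, 19 and 18 alternatives in which they were tested, at log2 values of -2.33 to -2.11, -1.35 to -1.17 and -1.11 to -0.73. The count of 3 members called lower was 2 with a mean of at least 5 FPKM, where EIF2AK3 was not tested, and 5 with voom on genes with at least 10 reads, where ERN1 and SEL1L joined (SEL1L adjusted p = 0.0489). Differences near 0 changed sign and none passed. After scaling to TPM they were 0.0326 for ATF6, 0.0237 for DERL1 and 0.0472 for DERL2. After quantile normalization they were 1.35e-04 for DERL1 and 0.0075 for DERL2, and with plain read totals 0.0432 for ATF6, 0.0355 for DERL1 and 0.0555 for DERL2. Leaving out 1 library gave -0.0783 to 4.1e-05 for ATF6, -0.0565 to 0.0808 for EDEM1 and -0.0534 to 0.0142 for DERL2, and leaving out both libraries numbered 3 gave 0.0116 for DERL2. The cause was not tested.

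Of all tested genes, 3179 were called, 2103 with no filter, and 1855 to 2789 with 1 library left out. The count of genes called lower, 8 for other ERAD genes, 5 for XBP1s targets, 3 for sensor relatives and 7 for PERK branch genes, became 5, 3 and 0 for the first 3 of these with TPM, and 5, 3 and 0 with plain read totals. Sensor relatives gave 1 with quantile normalization. The PERK branch gave 12 with voom on at least 10 reads, where 2 more genes were tested. Other ERAD genes gave 5 without both libraries numbered 3. With 1 library left out the counts ranged from 4 to 8, 3 to 5, and 1 to 2 for the first 3 lists. The log2 difference of the DERL1 to DERL2 ratio ranged from -0.0500 to 0.0136 with 1 library left out.

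Replicate numbers are not said to mark a batch, and deviations of same-numbered libraries correlated at -0.0447 to 0.0273. With the replicate block, 2131 genes were called, the 3 members kept their calls, and 1 sensor relative was called lower. At 95 to 178 reads per library for ERN1, depth limits its precision.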
